A study of Danio rerio with 82 samples.

Results

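Stage II oocytes of the zebrafish (Danio rerio) were compared with stage I oocytes by poly(A) RNA sequencing, with 1 library for each stage. The comparison covered every annotated locus whose mean over both libraries was at least 1 FPKM, a unit that scales fragment counts to transcript length and library size, which held for 14060 of the 28405 loci listed. The size of a difference was taken as log2(FPKM + 1) in stage II minus the same in stage I, and a locus was counted as higher or lower when this difference reached 1 in either direction, which is 2-fold on that scale. The series holds 82 samples of gametes and embryos. Both oocyte libraries came from wild-type females of the Tu strain, with no treatment. The oocytes were picked out of adult ovaries by their shape under a microscope and freed of follicle cells as far as this could be done, so some follicle cells may remain. The labels call stage I oocytes G1-phase and stage II oocytes S-phase. The sources used here give neither the age of the fish nor the number of fish or oocytes behind each library. Libraries of stages III and IV, prepared in the same way, are quoted as single values beside the comparison. With 1 library a stage there was no test: the lower and upper confidence bounds deposited with each FPKM describe the precision of that library and say nothing of the spread between fish.

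Fish oocytes grow through a series of stages while arrested in the prophase of the first meiotic division. In stage I, the primary growth stage, the oocyte is transcriptionally active and carries the Balbiani body, an aggregate of mitochondria, RNA and germ plasm. In stage II cortical alveoli fill the cytoplasm, the egg envelope thickens and the follicle layers around the oocyte develop, while the uptake of yolk protein made by the liver belongs mainly to stage III.

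Both libraries carried the transcripts that define oocytes. The growth factor gene bmp15 stood at 94.4 FPKM in stage I against 113 in stage II, and gdf9 at 33.8 and 39.7. The Balbiani body organiser buc stood at 749 and 601 FPKM, the germ cell helicase gene vasa at 88.9 and 112, and the oocyte importin gene kpna7 at 683 and 589.7. The transcription factor gene figla was listed at 0 in both. FPKM values summed to 772948 in stage I and 708661 in stage II, and 14063 and 13854 loci reached 1 FPKM. The 100 most abundant loci held 30.9% of the sum in stage I and 24.6% in stage II. The number of sequenced fragments is not in the files, so the depth is unknown.

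Few loci differed by 2-fold or more between stages I and II. Of the 14060 loci, 384 (2.73%) were higher and 480 (3.41%) were lower in stage II, 6.15% in all, and 66.4% of all loci lay above 0 with a median difference of 0.20. The central 90% of differences ran from -0.82 to 0.86. Of the 2-fold differences, 77.1% had bounds that did not overlap (290 higher, 2.06%, and 376 lower, 2.67%). Without a fold limit, the bounds lay apart for 4732 loci that were higher (33.7%) and for 1555 that were lower (11.1%). Differences of 4-fold were fewer, 24 higher (0.171%) and 87 lower (0.619%).

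The balance of higher and lower loci depended on how the 2 libraries were scaled to each other. As deposited, 55.6% of the 2-fold differences were lower in stage II. Dividing stage II by the median ratio between the libraries, 1.17 (the median-ratio scaling), gave 180 higher and 714 lower loci (79.9% lower) and a median difference of -0.01. Equalising the FPKM sums after leaving out the mitochondrial mRNAs and rps20, which multiplied stage II by 1.11 (the equal-sum scaling), gave 717 higher and 384 lower loci (34.9% lower) and a median of 0.33. Values of genes and gene lists below are given as deposited, to be read against the median of 0.20 for all loci, and where a list median is followed by a pair of values in parentheses these are the medians under the median-ratio and the equal-sum scaling, in that order. Counts of list members with bounds apart are to be read against 33.7% higher and 11.1% lower for all loci. Counts of list members past 2-fold as deposited are to be read against 2.73% higher and 3.41% lower for all loci. Of the gene list members named below as past 2-fold, the higher ones mt-co3, mt-nd6, ctcf, atp6v1c1b, sec31b, hsd17b1, cldn7a and cx34.5 were short of it under the median-ratio scaling, and the lower ones rpl11, rpl13a, rpl37, rps2, atp5g3b, ccnb1, btg4, p4hb, acta1a, myl9a, krt8, dusp2 and cx28.1 under the equal-sum scaling. Members that passed 2-fold only under a scaling are not among these.

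The direction was also related to transcript abundance. Among the 89 loci whose mean reached 1000 FPKM the median difference was -0.47, with 5 higher and 15 lower (16.9%). From 100 to 1000 FPKM the median was -0.05 over 1050 loci, from 10 to 100 FPKM it was 0.29 over 6955 loci, and from 1 to 10 FPKM it was 0.11 over 5966 loci. The shortest 10% of loci, spanning 60 to 3408 bases of the genome, had a median of -0.06 and the longest 10% had 0.29. The most abundant locus of both libraries was rps20, a ribosomal protein gene, at 25433 FPKM in stage I against 14834 in stage II. Next came crp2 at 19761 and 14249.7, and then, in stage I, phc2b at 11648 against 4550.1 in stage II. The phc2b locus is annotated as only 423 bases long, on chromosome 1 from 774782 to 775204 (danRer7), and a span so short says little about the full gene of this polycomb subunit. In stage II its place was taken by mt-atp8. The bounds can be read as the value plus or minus 2 times the counting error. So read, those of rps20 would stand for 460 fragments in stage I and 302 in stage II. Those of crp2, whose locus overlaps zgc:172225, would stand for 665 and 468, and those of phc2b for 34238 and 14617. The order by FPKM was thus not the order by fragments.

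**Figure D1:**
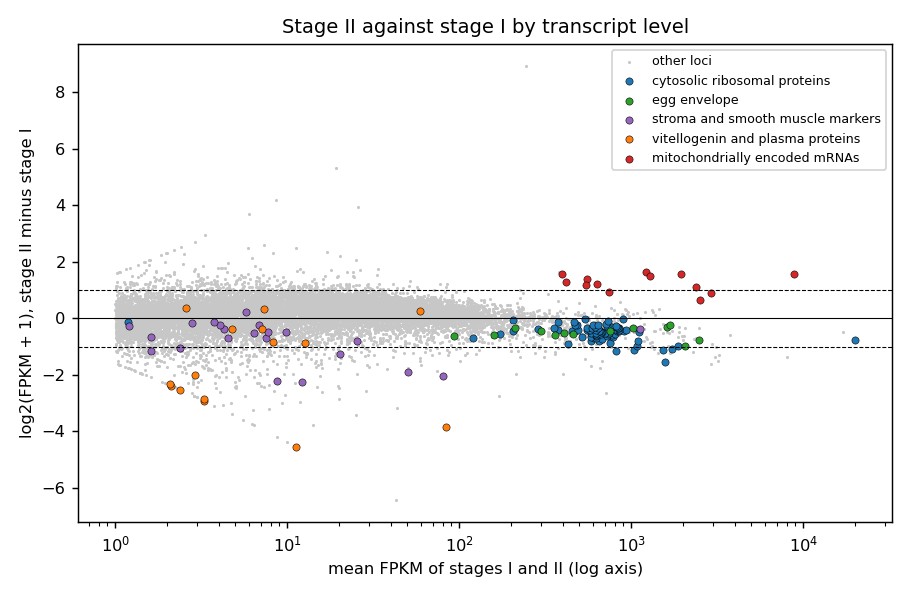
Difference in log2(FPKM + 1), stage II minus stage I, against the mean FPKM of both stages on a log axis, 1 point per locus with a mean of at least 1 FPKM. Dashed lines mark 2-fold; red points (mitochondrial mRNAs) all lie above 0, and blue (cytosolic ribosomal protein) and green (egg envelope) points all lie below 0, as deposited.

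The mRNAs made inside the mitochondrion were the group that was higher in stage II. All 13 were higher in stage II with bounds apart, 10 of them by 2-fold or more (8 and 12 under the scalings), and their median difference was 1.29. The median was 1.06 under the median-ratio scaling and 1.44 under the equal-sum scaling. Their sum was 14206 FPKM in stage I, 34619 in stage II, then 73612 and 59897 in stages III and IV, and their share of all FPKM was 1.84%, 4.89%, 9.14% and 8.78%. Stage I therefore held the lowest share of the 4 libraries and stage II the next. The mt-atp8 locus, annotated as only 165 bases long, supplied much of these sums. It stood at 4488 FPKM in stage I, 13253 in stage II, then 24617 and 24621 in stages III and IV. With the bounds read as for rps20, its fragments stood at a stage II to stage I ratio of 2.02, against 2.95 for FPKM. These ratios were 1.30 and 2.96 for mt-atp6 and 1.13 and 2.17 for mt-co3. They lay closer for mt-co1 (1.45 and 1.59) and mt-co2 (1.61 and 1.84). The bounds of mt-cyb would stand for 4001 fragments in stage I and 10635 in stage II.

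The largest of these differences was that of mt-cyb, the cytochrome b gene of complex III, at 592 FPKM in stage I (bounds 573 to 610.4) and 1833 in stage II (1797 to 1868), followed by 4524 and 2597 in stages III and IV. The ATP synthase subunit genes mt-atp6 and mt-atp8 overlap each other on the mitochondrial genome and stood at 987 and 2922 FPKM, and at 4488 and 13253 FPKM, differences of 1.57 and 1.56. The complex I subunits ranged from 0.94 for mt-nd3 (507 and 977 FPKM) to 1.57 for mt-nd5 (199 and 593 FPKM). The 3 cytochrome oxidase subunits differed less than most of the others: mt-co1 stood at 1953 and 3096 FPKM (0.66), mt-co2 at 2042 and 3762 (0.88) and mt-co3 at 1495 and 3244 (1.12). The only member encoded on the other strand from the rest, mt-nd6, stood at 336 and 754 FPKM (1.16), within the range of the others.

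**Figure D2:**
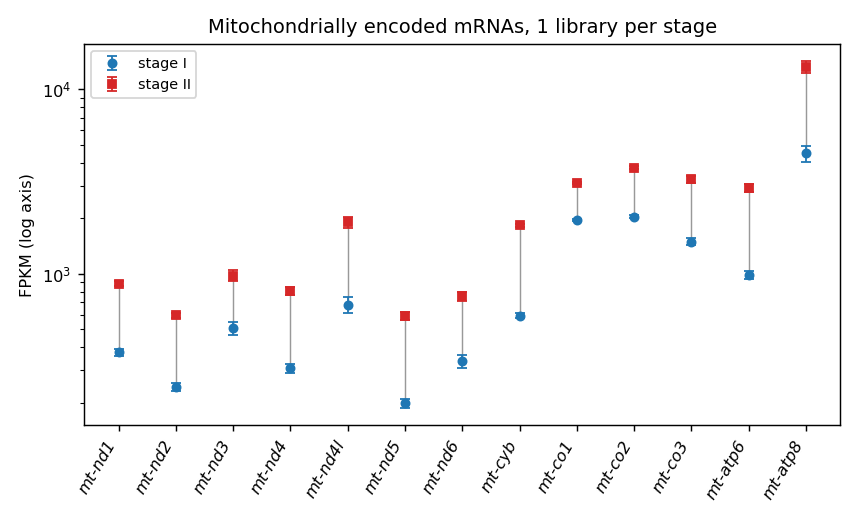
FPKM of the 13 mitochondrially encoded mRNAs in stage I (blue circles) and stage II (red squares) on a log axis, 1 library each, with the deposited confidence bounds as error bars and a grey line joining the stages. Every red square lies above its blue circle and the bounds do not meet; the gap is smallest for mt-co1.

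Nuclear genes of the same respiratory complexes did not share this direction. Among 75 nuclear oxidative phosphorylation genes the median difference was -0.04 (-0.27 under the median-ratio scaling and 0.11 under the equal-sum scaling), with none higher and 3 lower by 2-fold. The lower ones were the cytochrome oxidase subunits cox8b, at 23 FPKM in stage I against 6.22 in stage II, and cox7a1, at 4.96 and 1.53, and the ATP synthase subunit gene atp5g3b, at 4161 and 2073. The 59 mitochondrial ribosomal protein genes had none past 2-fold and a median of 0.06 (-0.16 and 0.21).

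Cytosolic ribosomal protein mRNAs were lower in stage II. All 78 lay below 0, 72 of them with bounds apart, and 5 were lower by 2-fold (13 under the median-ratio scaling and 1, rplp0, under the equal-sum scaling), and the median difference was -0.46 (-0.68 under the median-ratio scaling, -0.30 under the equal-sum scaling). They made up 11.5% of all FPKM in stage I, 8.18% in stage II, then 11.1% and 5.76%, so stage II lay below stages I and III and above stage IV. A large part of this came from 1 locus, rps20. It held 25433 of the list's 89247 FPKM in stage I and 14834 of 57960 in stage II. In stages III and IV it held 22582 of 89652 and 14003 of 39278. The acidic stalk protein gene rplp0 differed most, at 2327 FPKM in stage I (bounds 2227 to 2427) and 805 in stage II (769 to 842), a difference of -1.53. The other 4 past 2-fold were rpl37 (1131 and 508 FPKM), rpl11 (1425 and 650.0), rpl13a (2105 and 967) and rps2 (2339.8 and 1092). At the other end, rpl13 stood at 547 and 538 FPKM. The median of all loci was -0.47 at a mean of at least 1000 FPKM, where some of these genes lie, and -0.05 from 100 to 1000 FPKM.

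Other genes of the translation machinery were examined by role. Of 66 initiation and elongation factor genes none passed 2-fold, and their median was 0.01 (-0.23 and 0.16). Young fish oocytes store 5S ribosomal RNA bound to transcription factor IIIA and ribosomal protein L5; gtf3ab, a gene for that factor, stood at 1014 FPKM in stage I (bounds 994 to 1033) and 507 in stage II (493 to 522), a difference that falls just short of 2-fold on this scale. For rpl5a the values were 206 and 139 FPKM. The 6 genes of 5S storage, which include rpl11, rpl5a and rpl5b of the ribosomal list, had a median of -0.40, with 4 lower and 1 higher with bounds apart and rpl11 lower by 2-fold. The 40 nucleolar and RNA polymerase I genes measured had none past 2-fold and a median of 0.19, near that of all loci; ubtfl, a relative of the polymerase I factor UBF, was the highest at 31.7 and 55.2 FPKM.

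Some of the most abundant cytoskeletal and metabolic mRNAs were lower as well. Actin gene actb1 stood at 4725 FPKM in stage I (bounds 4542 to 4908), 1643 in stage II (1579.6 to 1707), then 1953 and 219 in stages III and IV, a difference of -1.52 between the first and second of these. Tubulin gene tubb4b stood at 4429 and 1729 FPKM (-1.36), and tuba4l at 2162 and 1109 (-0.96). Of 39 actin and tubulin genes and their regulators, none was higher by 2-fold and 8 were lower (11 and 5 under the scalings), with a median of -0.18; of the 12 tubulins, 10 lay below 0. Gamma-tubulin gene tubg1, which nucleates microtubules, lay the other way at 13.3 and 26.6 FPKM (0.95). Among the 8 lower ones were the skeletal actin genes acta1a and acta1b, the myosin light chain genes myl9a and myl9b and the tropomyosin gene tpm4a, which lay between 5.53 FPKM (acta1a) and 46 (myl9b) in stage I.

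Among 22 glycolysis enzymes the median was 0.12 (-0.08 under the median-ratio scaling). The glyceraldehyde phosphate dehydrogenase gene gapdh was the only one lower by 2-fold, at 4379.9 FPKM in stage I (bounds 4196 to 4564) and 1436 in stage II (1373 to 1499). The enolase gene eno1b, at 0.389 and 2.16 FPKM, was higher by 2-fold from a low level. If the bounds are taken as the value plus or minus 2 times the counting error, those of actb1 would stand for 2670.1 fragments in stage I and 2649.9 in stage II, and those of gapdh for 2266 and 2077, while the FPKM values differed 2.88-fold and 3.05-fold. The mismatch was not confined to these genes. By this reading the fragments and the FPKM of mt-atp6 stood at ratios of 1.30 and 2.96, stage II to stage I. For mt-co3 they were 1.13 and 2.17, for rplp0 0.88 and 0.35, and for the egg envelope gene zp3a.1 0.94 and 0.59. They lay closer for others, at 1.45 and 1.59 for mt-co1, 0.57 and 0.53 for the claudin gene cldnd and 0.49 and 0.51 for zp3.2. What else enters the bounds is not given, and with depth unknown these FPKM differences could not be set against counts.

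Egg envelope mRNAs were lower in stage II. All 13 zona pellucida protein genes measured were lower with bounds apart, none of them by 2-fold (1 under the median-ratio scaling). The median difference was -0.53 (-0.75 and -0.37 under the scalings). The largest difference was that of zp3.2, at 2705 FPKM in stage I (bounds 2674 to 2736), 1378 in stage II (1356 to 1401), then 1424 and 98.9 in stages III and IV. The smallest was that of zp3a.2, at 1831 and 1537 FPKM. The most abundant in stage I, zp3a.1, stood at 3105 and 1837 FPKM, and its stage IV value was 80.7. The median of all loci was -0.47 at a mean of at least 1000 FPKM, where zp3.2, zp3a.1 and zp3a.2 lie. From 100 to 1000 FPKM it was -0.05. The zp genes form a family of similar sequences, and the sources used here do not say how reads shared by them were assigned.

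Of the 11 oocyte factor genes measured none passed 2-fold as deposited, and 2 were lower by 2-fold under the median-ratio scaling. Their median was -0.21 (-0.44 and -0.06), and the groups within them lay on different sides of 0. All 6 stored or maternal effect proteins lay below 0. The translational repressor zar1 stood at 836 FPKM in stage I against 479.5 in stage II (difference -0.80), with 159.8 and 21.7 in stages III and IV. Its relative zar1l stood at 1665 and 903 FPKM (-0.88), and the histone chaperone npm2b at 666 and 449 (-0.57). The growth factors gdf9 and bmp15 both lay slightly above 0, at 0.23 and 0.25, with bounds apart, as did the oocyte transcription factor nobox, at 16.7 and 21.5 FPKM (0.34). The other transcription factors, lhx8a and taf4b, stood at 118 and 92, and at 11.4 and 10.5 FPKM. These 3 small differences are of the size of the median of all loci.

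Germ plasm genes were nearly level between the stages. None of the 11 measured passed 2-fold, 3 lay lower with bounds apart and 1 higher, and the median was -0.07 (-0.30 and 0.08 under the scalings). Besides buc (difference -0.32), the carbonic anhydrase gene ca15b stood at 689.5 and 622 FPKM (-0.15), and celf1, an RNA-binding protein gene, at 78.5 and 92.4 (0.23). The translational regulator dazl stood at 73.1 FPKM in stage I against 68.8 in stage II, and nanos3 at 66.4 and 65.1, with overlapping bounds for each.

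In the piRNA pathway, which silences transposons in the germ line, 1 of 11 genes passed 2-fold. This was the Piwi gene piwil1, at 88.7 FPKM in stage I (bounds 83.3 to 94), 38.4 in stage II (34.6 to 42.1), then 28.5 and 7.15 in stages III and IV. Its partner piwil2 stood at 37.9 and 39.3 FPKM with overlapping bounds. The Tudor domain genes tdrd9, at 43.1 and 26.5 FPKM (-0.68), and tdrd1, at 66.9 and 45.7 (-0.54), were also lower with bounds apart, while tdrd5 and tdrkh lay at 0.06 and 0.17. The median of the list was -0.12 (-0.35 and 0.03).

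Genes of meiotic prophase were at low to moderate levels in both libraries and none of the 13 measured passed 2-fold (median -0.11; -0.33 and 0.04 under the scalings). The synaptonemal complex genes sycp1, at 8.92 FPKM in stage I against 7.28 in stage II, and sycp3, at 2.33 and 3.17, had overlapping bounds. The double-strand break enzyme gene spo11 stood at 13.5 and 7.49 FPKM (-0.77), lower with bounds apart. The repair gene brca2 lay the other way, at 9.06 FPKM (bounds 8.45 to 9.67) and 13.5 (12.7 to 14.2). The meiotic recombinase gene dmc1 was listed at 0 in stage I and at 0.229 FPKM in stage II, below the level at which loci were compared.

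The stage labels name G1 and S phase, which does not match the arrest in meiotic prophase described above. Levels of mRNA do not show whether DNA was being replicated. Because of the labels, the replication genes were read as a group. None of the 52 measured passed 2-fold in either direction as deposited, and 2 were higher by 2-fold under the equal-sum scaling. The bounds lay apart for 27 that were higher and 5 that were lower in stage II, beside 33.7% and 11.1% of all loci. The median difference of the 52 genes was 0.25, against 0.20 for all loci. It was 0.06 under the median-ratio scaling and 0.40 under the equal-sum scaling, against -0.01 and 0.33 for all loci. The 27 replisome genes had a median of 0.37, the 17 origin licensing genes 0.25 and the 8 genes of nucleotide supply 0.16. The largest difference was that of pola1, the catalytic subunit of DNA polymerase alpha, at 23.9 FPKM in stage I (bounds 22.5 to 25.4), 47.4 in stage II (45.1 to 49.6), then 53.6 and 72.4 in stages III and IV. The helicase gene mcm8 stood at 8.67 and 17.2 FPKM (0.91), the primase partner pola2 at 29.6 and 48.3 (0.69) and the polymerase epsilon gene pole at 10.2 and 16.3 (0.63). Others lay lower: the sliding clamp pcna stood at 453 FPKM in stage I against 361 in stage II, the origin subunit orc3 at 93.1 and 68.9, and the ribonucleotide reductase subunit rrm2 at 124 and 95.2. The licensing inhibitor geminin, gmnn, was near level at 611 and 631 FPKM. Levels in stage I ran from 0.995 FPKM for mcm6 to 611 for gmnn. In Xenopus, maternal forms of Mcm3 and Mcm6 serve the early embryo; here mcm3l stood at 146 and 131 FPKM and mcm6l at 135 and 158, while mcm3 (0.208 and 0.26) and mcm6 (0.995 and 1.09) were near or below 1 FPKM and mcm2 was listed at 0 in both libraries.

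Among cyclins and regulators of maturation, 2 of 39 passed 2-fold, both lower. Cyclin B1, which with Cdk1 forms maturation promoting factor, had its mRNA ccnb1 at 1742 FPKM in stage I (bounds 1689 to 1794), 864 in stage II (833 to 896), then 608 and 2942 in stages III and IV, so stage IV held the most. The securin gene pttg1 was the other, at 2.5 (bounds 1.03 to 3.98) and 0.189 FPKM (0 to 0.894), low in both. The number lower was 3 under the median-ratio scaling and 1 under the equal-sum scaling. The related ccnb2 was near level, at 595 and 647 FPKM. The kinase mos, which drives cytostatic arrest, stood at 464 and 261 FPKM (-0.83). On the other side of 0 lay the centriole kinase plk4, at 10.5 and 19.5 FPKM (0.83), and separase, espl1, at 15.1 and 27.6 (0.83). The whole list had a median of 0.11 (-0.12 and 0.26).

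Genes for histone acetylation and H3K4 or H3K36 methylation lay on the higher side of the distribution in stage II, without reaching 2-fold as deposited. Of 14 acetyltransferases and bromodomain readers, 12 were higher and 1 lower with bounds apart, and the median was 0.42 (0.21 and 0.57 under the scalings). With a mean of at least 10 FPKM the list's median was 0.30, closer to the 0.24 of all loci at that setting. The coactivator crebbpa, a CBP acetyltransferase, stood at 10.6 FPKM in stage I (bounds 9.9 to 11.3), 19.4 in stage II (18.4 to 20.4), then 8.74 and 0.831 in stages III and IV. Its copy crebbpb stood at 1.91 and 3.92 FPKM, and ep300b at 4.84 and 7.39. The bromodomain gene brd2a was the exception, at 94.8 and 74.8 FPKM.

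The 20 methyltransferases and subunits for H3K4 and H3K36, marks of promoters and transcribed bodies, had 13 higher and none lower with bounds apart, and a median of 0.39 (0.20 and 0.54). Under the equal-sum scaling 1 of them was higher by 2-fold. With a mean of at least 10 FPKM the list's median was 0.37, against 0.24 for all loci at that setting. The H3K36 enzyme setd2 stood at 10.7 FPKM in stage I (bounds 9.24 to 12.1), 20.5 in stage II (18.1 to 22.9), then 25.7 and 156 in stages III and IV. The H3K4 enzyme kmt2ba stood at 8.53 and 15.6 FPKM (0.80), and prdm9 at 20.6 and 31.9 (0.61). The shared subunits wdr5, at 81.7 and 99.2 FPKM, ash2l, at 54.8 and 60.8, and dpy30, at 92.7 and 87.6, differed less than the enzymes kmt2ba and setd2.

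Polycomb genes had 1 of 24 past 2-fold, the short phc2b locus (difference -1.36), and a median of 0.30 (0.07 and 0.45). The median of all loci from 10 to 100 FPKM was 0.29. Under the equal-sum scaling 1 polycomb gene was higher and 1 lower by 2-fold, and under the median-ratio scaling 2 were lower. The H3K27 methyltransferase ezh2 was lower with bounds apart, at 21.2 FPKM in stage I (bounds 19.3 to 23.1) and 11.5 in stage II (10.1 to 12.9). Its complex partners lay on the other side of 0: suz12a stood at 28.2 and 48.2 FPKM, suz12b at 16 and 28.4, and eed at 156 and 165 with overlapping bounds. Of the DNA methylation genes 3 of 12 were higher with bounds apart and none lower, a smaller share than the 33.7% of all loci, and none differed by 2-fold; the maintenance enzyme dnmt1 stood at 208 and 247 FPKM, and mbd1, a methyl-CpG binding domain gene, at 88.2 and 121. The demethylase genes tet1, tet2 and tet3 were all below 1 FPKM in both libraries.

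Among histone variants and chaperones 1 of 12 passed 2-fold. This was h2afx, whose protein is phosphorylated at DNA breaks, at 340.4 FPKM in stage I (bounds 325 to 356), 85.5 in stage II (77.9 to 93), then 58.1 and 18.8 in stages III and IV, a 3.98-fold lower FPKM in stage II than in stage I. The chaperones hira, at 27.9 and 43.3 FPKM, and daxx, at 34.5 and 51.4, were higher with bounds apart. The list's median was 0.16 (-0.04 under the median-ratio scaling).

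**Figure D3:**
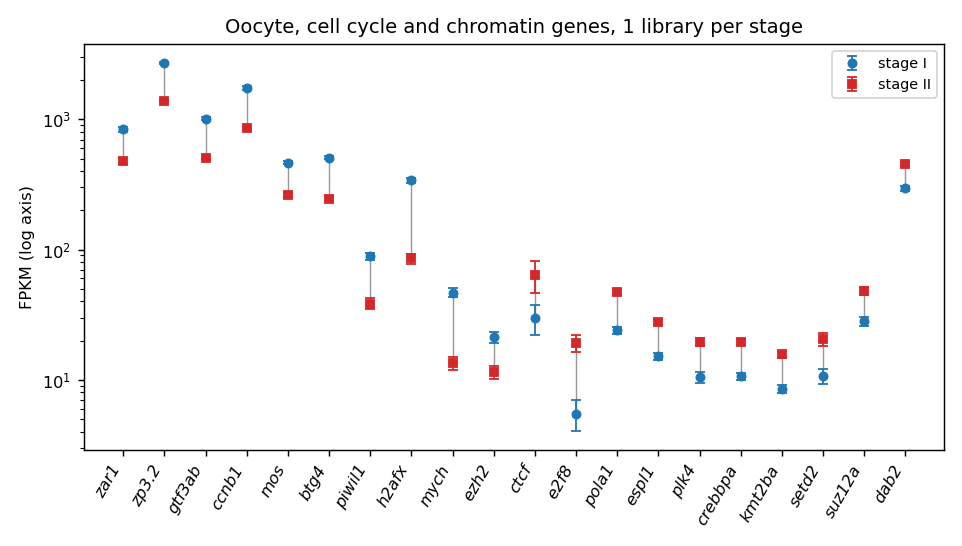
FPKM of 20 oocyte, cell cycle and chromatin genes in stage I (blue circles) and stage II (red squares) on a log axis, 1 library each, with the deposited confidence bounds as error bars. The first 10 genes, from zar1 to ezh2, are lower in stage II and the last 10, from ctcf to dab2, are higher; the genes were picked to show both directions.

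Translational control genes lay on both sides of 0. Factors of deadenylation, decay and m6A had a median of 0.32 over 25 genes and poly(A) and mRNP factors had -0.12 over 28, and over all 53 the median was 0.10 (-0.09 under the median-ratio scaling). The RNA helicase gene ddx6, listed with the mRNP factors, was the lowest, at 23.4 FPKM in stage I (bounds 21.1 to 25.8) and 7.86 in stage II (6.49 to 9.22). The antiproliferative adaptors btg1, at 58.7 and 25.8 FPKM, and btg4, at 507 and 245, were also lower by 2-fold, and the stage IV value of btg4, 1454, was above both. The deadenylase subunit cnot6l was the only one higher by 2-fold, at 3.26 FPKM (bounds 2.2 to 4.32) and 11.3 (8.48 to 14.1). The m6A reader ythdc1 stood at 20.8 and 33.8 FPKM (0.67).

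Maternal mRNAs that act in the embryo had 1 higher and 1 lower of 24. The insulator gene ctcf was higher, at 29.7 FPKM in stage I (bounds 21.9 to 37.5) and 64 in stage II (46.5 to 81.4), though short of 2-fold under the median-ratio scaling, and lower again at 30.9 and 7.11 in the next libraries. The Myc family gene mych was lower, at 46.7 FPKM (bounds 43.2 to 50.2) and 13.4 (11.8 to 15.1). Of the 7 genes listed as activators of the zygotic genome, ctcf among them, 3 lay above 0 and 4 below, 2 higher and 3 lower with bounds apart. The T-box gene eomesa was the other higher one, at 38.9 and 50.5 FPKM, while pou5f3 stood at 24.7 and 14.8 FPKM (-0.71), sox19b at 47.7 and 30.4 (-0.63) and nanog at 401 and 376 (-0.09). Beta-catenin genes lay above 0, ctnnb1 at 77.7 and 121 FPKM (0.64) and ctnnb2 at 145 and 187 (0.36). The list's median was 0.12 (-0.07 under the median-ratio scaling).

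Genes for yolk uptake and endocytosis had a median of 0.22 over 54 (0.01 and 0.37), with 25 higher and 5 lower with bounds apart, and 1 past 2-fold in each direction. Of all loci, 33.7% were higher and 11.1% lower with bounds apart. The proton pump subunit atp6v1c1b was higher, at 7.74 FPKM in stage I (bounds 6.41 to 9.07) and 17.9 in stage II (15.8 to 20.0), and short of 2-fold under the median-ratio scaling. The clathrin adaptor picalmb was the lower one, at 9.14 and 2.73 FPKM, with bounds in stage I from 0 to 26.9 that cover the stage II value. The endocytic adaptor dab2 stood at 295 FPKM in stage I against 453 in stage II (0.62), and eps15 at 10.8 and 19.3 (0.78). The yolk-processing protease genes ctsba, at 2097 and 1695 FPKM, and ctsla, at 770.0 and 622, were lower with bounds apart.

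In the secretory pathway, which supplies cortical alveoli and envelope, 3 of 79 genes were higher and 2 lower by 2-fold, beside 2.73% and 3.41% of all loci. The list's median was 0.06 (-0.17 under the median-ratio scaling). The protein disulfide isomerase pdia2 was the highest, at 12 FPKM in stage I (bounds 10.4 to 13.6), 41.2 in stage II (37.8 to 44.7), then 47.1 and 0.95 in stages III and IV. Its relative p4hb lay the other way, at 804 FPKM (bounds 793 to 815), 374 (366 to 382), 152 and 63.5 in the same order. The stress factor xbp1 stood at 596 and 363 FPKM (-0.71), and the coat gene sec31b at 24.6 and 52 (1.05). Sterol synthesis genes had 10 of 23 higher and 1 lower with bounds apart, beside 33.7% higher and 11.1% lower of all loci, and a median of 0.39. Among them dhcr7, which makes cholesterol in its last step, stood at 4.43 and 9.25 FPKM (0.92). Lipid droplet and fatty acid genes had a median of -0.15 over 15, and 1 was lower by 2-fold. This was fabp10a, a liver fatty acid binding protein gene, at 5.94 FPKM in stage I (bounds 1.8 to 10.1) and listed at 0 in stage II; the fatty acid binding gene fabp3 stood at 557 and 321 FPKM (-0.79).

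**Figure D4:**
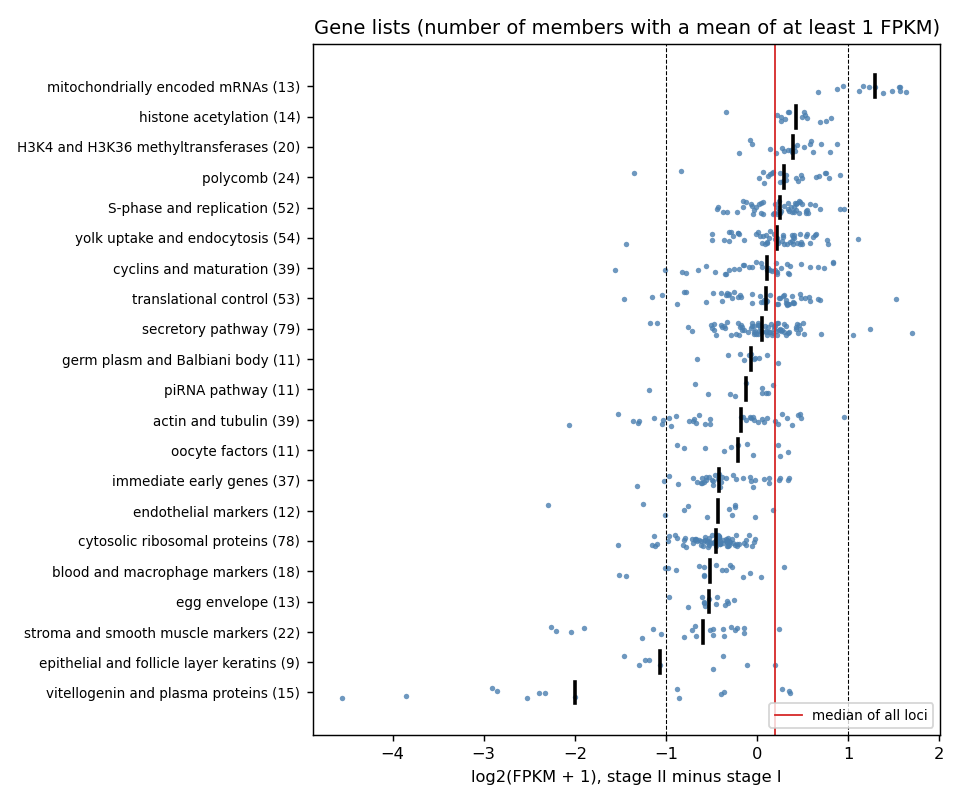
Difference in log2(FPKM + 1), stage II minus stage I, for each compared member (blue points) of selected gene lists, ordered by the list median (black bars), as deposited. Dashed lines mark 2-fold and the red line marks the median of all loci; the mitochondrial mRNAs lie furthest right and the vitellogenin and plasma proteins furthest left.

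Follicle cell genes were present in both libraries. Of 23 measured, 2 were higher and 3 lower by 2-fold, with a median of -0.08 (-0.23 and 0.03), and the list summed to 767 FPKM in stage I, 657 in stage II, then 983 and 703 in stages III and IV. Steroidogenesis genes held 662, 561, 689 and 701 FPKM of these sums, and granulosa hormone, receptor and regulator genes 105, 96.1, 294 and 2.35. The steroidogenesis sum came mostly from members other than cyp19a1a and hsd17b1, which are given below and were close to 0 in stage IV. That sum therefore does not follow these genes. In stage IV 12 of the 31 listed members were at 0, and in stages I and II none was. In such bulk samples fewer cells of a type and less RNA per cell cannot be told apart. The aromatase gene cyp19a1a, which turns androgens into oestrogens in granulosa cells and lies on chromosome 18 from 38057824 to 38073637 (danRer7), stood at 10.3 FPKM in stage I (bounds 8.73 to 11.8), 34.3 in stage II (31.5 to 37.1), then 32.1 and 0.166 in stages III and IV. Another enzyme of oestrogen synthesis, hsd17b1, stood at 7.45 (bounds 6.21 to 8.69), 17.8 (15.7 to 19.9), 23.8 and 0.314 FPKM in the same order of stages. Both were thus low in stage I, higher in II and III and close to 0 in IV.

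Other follicle genes lay on both sides of 0. The follicle-stimulating hormone receptor fshr stood at 0.469 FPKM in stage I (bounds 0.166 to 0.771) and 1.88 in stage II (1.28 to 2.48), just short of 2-fold on this scale, and gsdf, a granulosa factor, at 18.4 and 32.4 (0.78). Inhibin alpha, inha, was lower, at 34.1 FPKM (bounds 30.4 to 37.8), 12.6 (10.3 to 14.8), 84.5 and 0.305 from stage I to IV. The testosterone-forming hsd17b3 stood at 7.37 and 2.00 FPKM, and wt1a, a transcription factor of gonadal somatic cells, at 11.2 and 4.25, both lower by 2-fold. The granulosa regulator foxl2, at 2.99 and 4.24 FPKM, and amh, at 1.11 and 1.81, had overlapping bounds. The part of follicle cells in the differences was not tested.

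The list of epithelial and follicle layer keratins, which also holds adhesion and other epithelial genes, was lower in stage II. Of 9 members measured, 5 were lower by 2-fold and 7 with bounds apart, with a median of -1.07 (-1.29 and -0.92). The 5 were krt8, krt18, krt4, krt15 and icn, the last of which is not a keratin gene. The keratin gene krt18 stood at 121 FPKM in stage I, 52.8 in stage II, then 120.2 and 0.291 in stages III and IV, and its partner krt8 at 130.4, 61.7, 152 and 1.83. Stage II was thus below stages I and III, and stage IV was near 0. Most of the list's sum, 1747 FPKM in stage I, 1212 in stage II, then 1273 and 3236, came from the adhesion gene epcam (1216, 870.0, 462 and 2779), whose difference was -0.48. In stage II 6 of the 16 listed members, krt17 and cyt1 among them, were listed at 0, and in stage I 3 were. The part of surface or follicle epithelium was not tested.

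Stroma and smooth muscle genes were lower in stage II: 7 of 22 by 2-fold, 16 with bounds apart, none higher by either count, median -0.59 (-0.74 and -0.47). The pericyte receptor pdgfrb stood at 20.8 FPKM in stage I (bounds 19.2 to 22.4), 3.56 in stage II (2.92 to 4.19), then 3.25 and 0.055 in stages III and IV. The smooth muscle genes tagln, at 130.3, 31, 113 and 0.192 FPKM from stage I to IV, and acta2, at 80.4, 20.7, 81.1 and 0.703, came back in stage III, unlike pdgfrb. The collagen genes col1a1a, at 11.6 and 8.01 FPKM, and col1a2, at 7.72 and 5.09, differed less. The summed level was 1668 FPKM in stage I, 1127 in stage II, then 1787 and 2332, of which thy1 alone held 1274, 980.0, 1372 and 2289. In stage II desma, lum and ogn were listed at 0, and in stage I no member was. The part of stroma carried with the oocytes was not tested.

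Blood, immune and vessel genes were lower too, at low levels. Of 18 blood and macrophage genes 3 were lower by 2-fold (5 and 2 under the scalings) and none higher, with a median of -0.52 (-0.69 and -0.38) and a sum of 229 FPKM in stage I, 157 in stage II, then 361 and 25.4. The alpha globin gene hbaa1 stood at 20.7 FPKM in stage I (bounds 16.6 to 24.8) and 6.97 in stage II (4.55 to 9.4), and the macrophage gene mpeg1 at 5.41 and 1.25. The embryonic globins hbae1 and hbbe3 and the erythroid factor gata1a were listed at 0 in both. Of 12 endothelial genes 3 were lower by 2-fold and none higher (median -0.43; -0.55 and -0.34), with a sum of 51.7 FPKM in stage I, 26.4 in stage II, then 48.7 and 7.75; the water channel aqp1a.1 stood at 11.8 and 1.6 FPKM, and the defining kdrl was level at 3.61 and 3.55. No endothelial member was listed at 0 in stage I or II. The part of these cells was not tested.

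**Figure D5:**
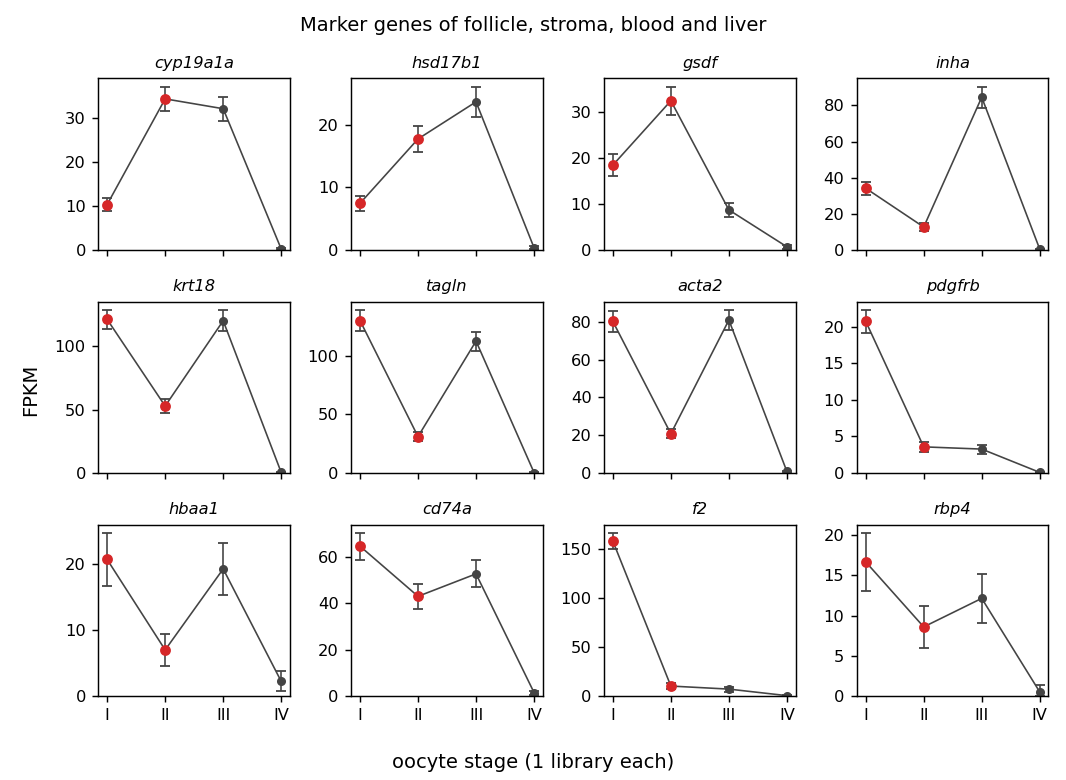
FPKM of 12 marker genes of follicle (cyp19a1a, hsd17b1, gsdf, inha), epithelium (krt18), stroma (tagln, acta2, pdgfrb), blood and immune cells (hbaa1, cd74a) and liver-made plasma proteins (f2, rbp4) in oocyte stages I to IV, 1 library each, with the deposited confidence bounds as error bars. Stages I and II are in red; cyp19a1a, hsd17b1 and gsdf are higher in stage II than in stage I and the other 9 genes are lower.

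Genes induced within minutes by growth signals or stress, the immediate early genes, had 2 of 37 lower (4 and 1 under the scalings) and none higher by 2-fold, 19 lower and 2 higher with bounds apart, and a median of -0.42 (-0.62 and -0.28). The stress gene gadd45ba stood at 27.3 FPKM in stage I against 10.4 in stage II (-1.31), and the phosphatase dusp2 at 19.1 and 8.9 (-1.02). The transcription factor egr1 stood at 57.8 and 37.3 FPKM (-0.62) and jun at 36.8 and 18.4 (-0.97), both with bounds apart, while atf3 lay the other way at 29 and 37. In stage IV egr1 stood at 0.312 FPKM. Heat shock genes and chaperones had none of 21 past 2-fold.

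Messages for proteins that the liver secretes into blood were lower in stage II, by an amount that depended on the processing. Of 15 measured, 8 were lower and none higher by 2-fold, 10 were lower and 2 higher with bounds apart, and the median was -1.99 (-2.07 and -1.94). All of the 8 except f2 and apoa2 were vitellogenin genes. The median was -3.00 with a pseudocount of 0.1, -0.86 with a pseudocount of 5, -0.35 with no filter on low values and -0.38 without loci that overlap another. Vitellogenin, the yolk precursor, is made in the liver; vtg1, on chromosome 22 from 25203435 to 25210659, stood at 22.6 FPKM in stage I (bounds 20.1 to 25), was listed at 0 in stage II, and stood at 3.83 and 2.21 in stages III and IV. The vtg1 locus overlaps that of vtg4, which stood at 4.24 FPKM in stage I and was listed at 0 in stage II, so reads of the pair cannot be told apart here. Other copies followed: vtg2 stood at 6.53 and 0.0382 FPKM, and vtg7 at 4.15 and 0.0269, while vtg5 and vtg6 went from 6.53 and 4.78 FPKM to a listing at 0. How reads shared by these copies were assigned is not given, so they may not be independent members of the list.

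The prothrombin gene f2, on chromosome 7 from 40142973 to 40152260, stood far above the vitellogenins, at 158 FPKM in stage I (bounds 149 to 166), 9.99 in stage II (7.1 to 12.9), then 6.89 and 0.23 in stages III and IV, a 15.8-fold lower FPKM in stage II. The apolipoprotein gene apoa2 stood at 5.24 and 0.565 FPKM. Not every plasma protein gene did the same: the retinol carrier rbp4, at 16.7 and 8.59 FPKM, stayed within 2-fold, and apoeb, which macrophages also make, lay slightly higher at 53.5 and 64.8. The list summed to 326 FPKM in stage I, 116 in stage II, then 659 and 7.43; 4 of its 43 listed members were at 0 in stage I and 15 in stage II, and apoeb held 531 of the stage III sum. The source of these transcripts was not tested.

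Outside the lists, the loci furthest up were chosen as the 15 largest differences among loci of at least 300 bases whose higher value reached 10 FPKM and whose bounds lay apart. The fibroblast growth factor gene fgf2, on chromosome 14 from 563298 to 565810, was listed at 0 in stage I, with both bounds at 0. It stood at 17.1 FPKM in stage II with wide bounds (1.81 to 32.4), which, read as for actb1, would stand for 5 fragments. Where both bounds are 0, the bounds lie apart whenever the lower bound of the other library is above 0. The CREB coactivator crtc1b, on chromosome 11 from 6985670 to 7017483, stood at 9.03 FPKM in stage I (bounds 2.18 to 15.9), 41.3 in stage II (27.2 to 55.3), then 9.64 and 45.7 in stages III and IV. The repressor e2f8, an atypical E2F that acts on S-phase genes, on chromosome 7 from 17351485 to 17373447, stood at 5.48 FPKM (bounds 4.00 to 6.96), 19.1 (16.4 to 21.9), 17.3 and 1.13 from stage I to IV. The coiled-coil gene ccdc9 stood at 15.1 and 52.6 FPKM (1.73), and with the same reading of the bounds as for actb1 these would stand for 68.8 and 43.1 fragments, fewer in stage II despite the higher FPKM.

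Among these 15, MFAP4 (12 of 14), a copy of a microfibril-associated gene on chromosome 1 from 59728646 to 59729564, reached the highest level of the nuclear loci, at 185 FPKM in stage I (bounds 175 to 196), 574 in stage II (556 to 592), then 1264 and 1.57 in stages III and IV. It is 1 of many near copies in the annotation, and it is not known how their shared reads were assigned. The intraflagellar transport gene IFT43, at 1.36 and 13.2 FPKM, and the sulfurtransferase gene TSTD1, at 2.25 and 10.7, were low in stage I with lower bounds at 0. With cyp19a1a, pdia2 and mt-cyb described above, the rest were loci named only by clone or project: CABZ01087562.1, si:dkey-110g7.6 (which overlaps csf2rb), zgc:92107, si:ch211-117n7.8 and a locus known by a project number on chromosome 6 from 3446263 to 3485273. In stage II zgc:92107 stood at 18.9 FPKM and si:dkey-110g7.6 at 19.7.

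The 15 loci furthest down, chosen in the same way, included f2, vtg1 and f5, the coagulation factor V gene, which stood at 21.9 FPKM in stage I (bounds 20.7 to 23), 1.93 in stage II (1.57 to 2.28), then 1.61 and 0.0483 in stages III and IV on chromosome 9 from 35098310 to 35119300. The extracellular matrix gene ECM1 (2 of 2), on chromosome 19 from 11893596 to 11896364, was the most abundant, at 1230.3 FPKM (bounds 1191 to 1269), 197 (181 to 213), 1104 and 2.59 from stage I to IV. It was thus high in stages I and III, lower in II and near 0 in IV. A similar course was seen in rdh10a, a retinol dehydrogenase of retinoic acid synthesis, at 50.0, 7.64, 42.5 and 3.77 FPKM, in the Maf transcription factor gene mafbb, whose locus overlaps adnpa, at 36.1, 4.08, 38 and 0.895, and in si:ch211-214p13.9, at 79.4, 7.85, 70.7 and 0.327.

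A different order was seen in ckba, a brain-type creatine kinase gene whose locus overlaps trmt61a, at 296 FPKM in stage I (bounds 283 to 309), 43.2 in stage II (39.2 to 47.2), then 45.2 and 8.48 in stages III and IV, with stages II and III alike. The amino acid transporter slc6a19b stood at 46.8, 3.43, 8.47 and 0.294 FPKM. The urea transporter slc14a2 stood at 12.5 FPKM in stage I and was listed at 0 elsewhere. In stage II both of its bounds were 0, as were those of vtg1. The urotensin gene uts1 stood at 10.7 and 0.739 FPKM. The locus si:ch1073-504d15.3, which contains bglap and mgp, and si:ch211-260p9.8, which overlaps plcg2, were near 0 in stage II and stood at 22 and 11 FPKM in stage I. The remaining si:ch211-196h16.12 and si:ch211-264f5.6 went from 17.4 to 1.32 FPKM and from 17.6 to 1.83 FPKM, respectively. Of all 864 loci past 2-fold, 22.7% overlapped another annotated locus, against 16.9% of all loci compared.

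Connexins form the gap junctions that join the oocyte to its follicle cells, and claudin genes encode proteins of other cell junctions. The 9 connexins measured had a median of 0.30 (0.07 and 0.45), with 3 higher and 2 lower with bounds apart. Of these cx34.5 was higher by 2-fold, at 12.6 FPKM in stage I (bounds 10.6 to 14.6), 28.5 in stage II (25.4 to 31.5) and 208 in stage III, and cx28.1 was lower, at 2.37 and 0.619 with overlapping bounds. The most abundant connexin, cx43.4, stood at 161 and 199 FPKM (0.30). Under the median-ratio scaling no connexin was higher and 2 were lower by 2-fold, and under the equal-sum scaling 1 was higher and none lower. The 9 claudins had a median of -0.76 (-0.93 and -0.64), with 6 lower and 1 higher with bounds apart, and the median was -0.12 with no filter on low values. By 2-fold, cldn7a was higher, at 3.94 and 9.67 FPKM, and cldn11a lower, at 78.2, 22.3 and 146 in stages I, II and III, and under the median-ratio scaling none was higher and 4 were lower. The abundant cldnd stood at 3847 and 2035 FPKM (-0.92). The nuclear progestin receptor pgr was low in both libraries: it stood at 5.59 FPKM in stage I, 2.61 in stage II and 41.6 in stage III, and the membrane progestin receptor component pgrmc2 at 84 and 106. The 42 proteasome genes and the 18 collagens had none and 1 past 2-fold.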

How the data were processed

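Poly(A) RNA of sorted oocytes was sequenced, 1 library per stage. FPKM values and their lower and upper bounds per locus were deposited by the authors, per the file headers; neither the program behind them nor the bounds' confidence level nor the depth is given in the sources used here. Of the tools in the submitters' processing notes, which give no roles, STAR 2.5.3a is an RNA aligner and the others are Bismark, Bowtie2 2.2.2 and Trim Galore; the build is danRer7. The protocol in the labels marks strand with dUTP; whether the counting used it is not given. The 2 files were joined on symbol and locus, and 1 was added to starts that count from 0. Loci whose mean reached 1 FPKM were compared as log2(FPKM + 1), pseudocount 1, in stage II minus stage I; FPKM of 1 locus (zgc:153258) in stage I carried the status FAIL. A difference of 1 (2-fold) was counted, and bounds were called apart where they did not overlap. Where a locus listed at 0 had both bounds at 0, this needed only a lower bound above 0 in the other library. Stage III and IV values were quoted beside the comparison; other samples of the series were not used here.

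Named loci are the 15 furthest in each direction (bounds apart, higher value at least 10 FPKM, locus of at least 300 bases, status OK in both), the 4 members of each list with the largest differences, members whose role the text gives, and the 5 most abundant loci of each library. The 38 gene lists and the comparison itself were chosen with earlier results of these data known, and vasa, which the files give under this older name, was added after its value was seen. Alternatives covered the pseudocount (0.1 and 5), the filter (none, and a mean of 10 FPKM), scaling, locus length, the fold, and leaving out overlapping loci or marker genes. The calculation was tested on simulated data with counting noise alone and 4-fold changes placed in well-covered loci. That checks the arithmetic and does not bear on scaling, shared reads or the spread between fish. Python 3.11.15, numpy 2.4.6, pandas 2.3.3 and matplotlib 3.10.9 were used. Some results are not reported here.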

Additional observations from a re-analysis of the deposited data

How the results depend on the processing

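With a pseudocount of 0.1, 723 loci were higher (494 with bounds apart) and 745 lower, with a median of 0.22; with a pseudocount of 5, 64 were higher (50 with bounds apart) and 172 lower (155), with a median of 0.14. Without a filter the counts stayed within 1.5 times, 432 and 560 of 22056 loci, and the median was 0.077. With a mean of at least 10 FPKM, 139 were higher (124 with bounds apart) and 143 lower (136), with a median of 0.24. The median-ratio scaling gave 180 higher (116 with bounds apart) and 714 lower (591), and turned the median of all loci to -0.0061. The equal-sum scaling gave 717 higher (593 with bounds apart) and 384 lower, with a median of 0.33. A 4-fold limit left 24 and 87. Leaving out loci under 300 bases gave 378 and 476. Chosen after seeing the data, leaving out overlapping loci gave 295 and 373, and leaving out the 162 marker loci of other cell types gave 382 and 451.

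Of 334 list medians under an alternative, 23 had another sign than as deposited, in 18 lists whose medians lay within 0.19 of 0. Under the median-ratio scaling those not given above were 5S storage and ribosome biogenesis (0.18 to -0.05), lipids and sterols (0.11 to -0.15), heat shock (0.11 to -0.10) and proteasome (0.06 to -0.17). With a mean of at least 10 FPKM, collagens went from -0.19 to 0.13 (0.13 also without the marker loci), follicle genes from -0.08 to 0.02 and translation factors from 0.01 to -0.01; the last also turned without a filter (-0.0061). Without overlapping loci, meiotic prophase went from -0.11 to 0.03. In 13 cases the median moved by over 0.25. Without a filter these included the keratin list (-1.07 to -0.45), and with at least 10 FPKM the stroma list (-0.59 to -1.58). No paired analysis was possible because each stage has 1 library, and there was no replicate to leave out. Depth is unknown, so a locus listed at 0 is not shown to be absent. The bounds describe 1 library each, and stage and library cannot be told apart.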

Other observations

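Genes in these paragraphs were picked after their values were seen, from the 864 loci past 2-fold as deposited, and are given as values only. Which of these genes stay past 2-fold under each scaling was not examined. The first of them were higher in stage II with bounds apart. The centriole assembly gene cenpj stood at 3.47 FPKM in stage I against 10.2 in stage II, the centrosomal gene cep63 at 11.6 and 27.5, and the gamma-tubulin complex gene tubgcp2 at 14 and 31.7. The ciliary transport genes rabl2, at 12.6 and 36.5 FPKM, and bbs2, at 5.1 and 12.3, lay on the same side. So did the following genes of DNA repair: the end-resection gene rbbp8 stood at 8.22 and 25 FPKM, the translesion polymerase gene rev1 at 11.4 and 24.5, and mms22l, which acts at stalled forks, at 19.2 and 41.8. The E2F partner gene tfdp1a stood at 37.1 and 77.9 FPKM, and the transferrin receptor tfr1a at 9.9 and 29.8.

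On the lower side, the clotting inhibitor tfpi2 stood at 14.9 FPKM in stage I against 2.64 in stage II, and the plasminogen activator plat at 9.2 and 0.922. The retinoic acid enzyme aldh1a2, whose locus overlaps lipca, stood at 25.5 FPKM in stage I, 11.6 in stage II and 79.8 in stage III. The polyamine genes smox, at 34.6 and 5.5 FPKM, and azin1a, at 18.7 and 7.26, were also lower. The RNA-binding protein genes larp6, at 897 FPKM in stage I, 277 in stage II, then 185 and 28.3 in stages III and IV, and elavl2, at 178, 73.2, 65.2 and 117, were the more abundant of these.

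The widest difference in each direction lay outside the rule for named loci, since the bounds overlapped and the loci are shorter than 300 bases: alcama, annotated here as a locus of 60 bases, was listed at 0 in stage I and at 487 FPKM in stage II (bounds 0 to 1178), and AL928875.1, of 122 bases, stood at 85.6 FPKM in stage I (bounds 0 to 257) and was listed at 0 in stage II.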
